A study of Mus musculus with 99 samples.

Results

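The corticotropin-releasing hormone system is described here by 6 genes of the 37991 in the count table, found by exact Ensembl ID: the ligand genes Crh, Ucn and Ucn3, the binding protein gene Crhbp, and the receptor genes Crhr1 and Crhr2. RNA was sequenced from the basolateral amygdala, ventral hippocampus, nucleus accumbens and prefrontal cortex of mice that had gone through chronic social defeat, a stress by repeated meetings with an aggressor after which mice are classed as susceptible or resilient by behaviour, and of control mice. Each of the 4 regions had 3 libraries of susceptible mice that responded to ketamine, 3 of susceptible mice that did not respond to it, 3 of susceptible mice that responded to imipramine and 4 of susceptible mice that did not. The other libraries were of mice given saline: 4 of resilient mice, 3 of susceptible mice and 5 of control mice (4 in the hippocampus), which made 99 in all. Each library pooled tissue of 2 mice, so a library is the replicate. Strain, sex, age, doses and times are not given in the sources used here.

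Crh encodes the neuropeptide that starts the hormonal stress response from the hypothalamus and also acts as a transmitter within the amygdala, cortex and other forebrain areas. Urocortin (Ucn) binds both receptors, whereas urocortin 3 (Ucn3) binds mainly the type 2 receptor. The receptors are coupled mostly to Gs and raise cyclic AMP, and the secreted binding protein holds Crh and urocortin away from them.

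Upstream sequence is shown for 1 ligand gene that was barely read in any region, for the ligand gene with the sharpest regional pattern, and for both receptor genes, of which one was highest and the other lowest in the prefrontal cortex. Each run is the 100 bases before the start of the gene in RefSeq, assembly GRCm38.p6, on the gene's own strand and written 5′ to 3′. The sequences lie at chr5:31138896-31138995 (minus strand, Ucn), chr13:3945350-3945449 (minus, Ucn3), chr11:104132681-104132780 (plus, Crhr1) and chr6:55133017-55133116 (minus, Crhr2). Capitals mark the cyclic AMP response element TGACGTCA and the TATA box TATAAA, both searched on both strands.
Ucn: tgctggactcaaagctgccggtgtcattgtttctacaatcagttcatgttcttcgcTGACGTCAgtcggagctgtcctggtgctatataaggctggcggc
Ucn3: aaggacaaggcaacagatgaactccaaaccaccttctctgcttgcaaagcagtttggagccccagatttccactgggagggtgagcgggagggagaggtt
Crhr1: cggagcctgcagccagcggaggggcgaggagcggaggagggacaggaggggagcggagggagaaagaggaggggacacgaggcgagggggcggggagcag
Crhr2: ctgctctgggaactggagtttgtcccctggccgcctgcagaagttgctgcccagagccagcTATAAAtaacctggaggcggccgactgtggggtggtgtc
The element in Ucn began 44 bases before the start, and 1.55% of 32851 promoters held these letters in their 250 upstream bases. The TATAAA in Crhr2 began 39 bases before the start, and 12.4% of the promoters held it. Neither motif was in the Ucn3 or Crhr1 window.

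Libraries held 14459028 to 59187954 counted reads. Marker genes matched the accumbens and hippocampus labels in control libraries. Drd1, a dopamine receptor of striatal projection neurons, averaged 260 ± 32.1 CPM (counts in 1000000 counted reads, SD, n = 5) in the accumbens against 11.6 ± 3.78 CPM in the prefrontal cortex. The dentate gyrus gene C1ql2 averaged 119 ± 12.8 CPM (n = 4) in the hippocampus against 7.91 ± 3.80, 1.04 ± 0.295 and 0.511 ± 0.182 CPM in amygdala, accumbens and prefrontal cortex (n = 5 each). The basolateral amygdala label had mixed markers: Lmo3 was highest in the amygdala (297 ± 43.0 CPM), but Rspo2 was lower there than in the prefrontal cortex (30.1 ± 11.9 against 43.0 ± 6.87 CPM). No list was made for the prefrontal cortex alone. Of 6 markers of the central amygdala and adjoining tissue, 4 had a higher control mean in the amygdala than in the accumbens, led by Cyp26b1 (127 ± 43.7 against 2.97 ± 1.37 CPM) and Tac2 (27.0 ± 10.9 against 7.26 ± 2.14 CPM). The other 2 were lower, Nts at 26.3 ± 6.99 against 29.1 ± 5.91 CPM and Dlk1 at 53.2 ± 11.6 against 148 ± 32.1 CPM. A pair of libraries stood apart, accumbens imipramine responder replicate 3 and amygdala imipramine responder replicate 2. Their median correlation with the other libraries of their group was 0.937 and 0.943 in log2 CPM, against 0.962 to 0.967 in the other imipramine responders of those regions and 0.983 to 0.996 in the 93 remaining libraries. In the accumbens library the striatal projection markers summed to 9621 CPM, against 4129 and 6214 CPM in the others of its group, and in the amygdala library to 3050 CPM, against 1164 and 978 CPM. In bulk tissue, fewer cells of a type and less RNA per cell cannot be told apart.

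Among the ligands, Crh was lowest in the hippocampus. Control libraries had 5.08, 5.90, 8.39, 6.34 and 3.13 CPM in the amygdala, 1.01, 1.68, 2.13 and 1.31 CPM in the hippocampus, 4.99, 6.97, 4.12, 2.90 and 1.91 CPM in the accumbens, and 6.53, 5.94, 6.09, 4.85 and 3.72 CPM in the prefrontal cortex. Hippocampal values lay below every amygdala and prefrontal value and overlapped the lowest accumbens value. The log2 difference was 1.93 (SE 0.348, adjusted p = 0.000151, edgeR quasi-likelihood test) for amygdala over hippocampus, -1.48 (SE 0.353, adjusted p = 0.00156) for hippocampus over accumbens and -1.85 (SE 0.352, adjusted p = 0.000236) for hippocampus over prefrontal cortex. The 3 other regions could not be put in order. Their log2 differences were 0.44 (SE 0.290) for amygdala over accumbens, 0.08 (SE 0.288) for amygdala over prefrontal cortex and -0.37 (SE 0.295) for accumbens over prefrontal cortex, with adjusted p between 0.215 and 0.871. Without control replicate 2 of the accumbens, the difference of amygdala over accumbens was 0.71 and passed (adjusted p = 0.0451).

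Hippocampal Crh was the lowest of the 4 group means in 7 of 7 conditions, but the top place was taken by the amygdala in 5 conditions and by the accumbens in 2. The spread within groups differed too. The median coefficient of variation of Crh was 46.7% in the accumbens, 33.2% in the amygdala, 26.1% in the hippocampus and 12.3% in the prefrontal cortex. Single libraries reached 13.1 CPM in the accumbens and 16.4 CPM in the amygdala, there in imipramine responder replicate 2, whereas the 25 prefrontal libraries stayed between 3.48 and 6.53 CPM.

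Ucn3 was highest in the amygdala and was also read in all 25 accumbens libraries. Control amygdala libraries had 15.9, 2.73, 8.06, 3.47 and 0.566 CPM and control accumbens libraries 0.507, 0.470, 0.756, 0.367 and 0.199 CPM. No read was counted in any of the 25 prefrontal libraries, and 5 reads in all were counted over 24 hippocampal libraries. The amygdala range was wide and its lowest library fell inside the accumbens range. Over all libraries of a region, Ucn3 ran from 0.0752 to 15.9 CPM in the amygdala (median 3.51) and from 0.0322 to 1.15 CPM in the accumbens (median 0.411). Amygdala over accumbens gave a log2 difference of 3.72 (SE 0.738, adjusted p = 0.000846), a 13.2-fold difference. Without control replicate 1 of the amygdala, which held 850 of the 1329 control reads there, the log2 difference was 2.99, and the adjusted p from edgeR was at most 0.00308 with any 1 of the 10 control libraries left out. Pooled over the control libraries the amygdala was at least 322-fold higher than the prefrontal cortex and the accumbens at least 20.6-fold higher, with the prefrontal level set at its limit of 3 reads over the group (0.0224 CPM). Without control replicate 1 of the amygdala that limit was 164-fold. The hippocampal controls held 1 Ucn3 read, which gave a ratio of 824 for amygdala over hippocampus (95% interval 148 to 32600; 419 without that replicate) and of 52.7 for accumbens over hippocampus (9.14 to 2110). These exact intervals cover counting error only. Ucn3 passed the filter on low counts only through the amygdala and accumbens, so its difference from the other regions was bound to appear.

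Ucn was close to unread. It summed to 92 reads over 25 amygdala libraries, 8 over 24 hippocampal libraries, 82 over 25 accumbens libraries and 38 over 25 prefrontal libraries. It was under the filter in every region and gets no test. The highest libraries were susceptible saline replicate 3 and imipramine non-responder replicate 2 of the accumbens, at 0.657 CPM (16 reads) and 0.547 CPM (17 reads). Ucn2, another urocortin gene and not one of the 6, had at most 7 reads in a library.

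Crhbp, the binding protein gene, was low in the accumbens and high elsewhere. Control libraries had 30.7, 33.3, 32.6, 45.8 and 43.6 CPM in the amygdala, 31.6, 37.6, 41.4 and 27.7 CPM in the hippocampus, 4.63, 6.18, 6.12, 8.60 and 7.55 CPM in the accumbens, and 24.7, 27.3, 28.1, 29.6 and 23.5 CPM in the prefrontal cortex. No accumbens library reached the lowest library of any other region. The log2 difference was 2.47 (SE 0.155, adjusted p = 5.49e-11) for amygdala over accumbens, 2.37 (SE 0.160, adjusted p = 1.15e-10) for hippocampus over accumbens and -2.01 (SE 0.155, adjusted p = 7.84e-10) for accumbens over prefrontal cortex. Amygdala exceeded prefrontal cortex by 0.47 (SE 0.141, adjusted p = 0.0133). Hippocampus over prefrontal cortex was 0.37 (SE 0.15), which missed the threshold (adjusted p = 0.0569) but passed in DESeq2 (adjusted p = 0.0492), with runs of sample numbers as a covariate (0.0312) and without control replicate 4 of the hippocampus (0.0256). Amygdala over hippocampus was 0.10 (SE 0.148, adjusted p = 0.637).

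The receptor genes had different orders. Crhr1, the receptor with high affinity for Crh, had 17.2, 19.0, 19.2, 10.8 and 15.1 CPM in amygdala controls, 9.24, 11.1, 7.90 and 8.17 CPM in hippocampus controls, 9.84, 9.10, 12.5, 11.1 and 10.0 CPM in accumbens controls, and 33.0, 34.1, 40.2, 33.0 and 33.6 CPM in prefrontal controls. The lowest prefrontal library lay above the highest of every other region. Log2 differences from the prefrontal cortex were -1.11 (SE 0.126, adjusted p = 5.09e-07) in the amygdala, -1.94 (SE 0.143, adjusted p = 4.78e-10) in the hippocampus and -1.73 (SE 0.130, adjusted p = 3.39e-10) in the accumbens. Amygdala exceeded hippocampus by 0.83 (SE 0.141, adjusted p = 6.22e-05) and accumbens by 0.61 (SE 0.130, adjusted p = 0.000498). Hippocampus and accumbens were not told apart (log2 difference -0.21, SE 0.143, adjusted p = 0.224).

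Crhr2, the receptor for the urocortins, was highest in the amygdala and lowest in the prefrontal cortex. Its control values were 6.43, 4.67, 5.00, 4.06 and 3.83 CPM in the amygdala, 1.27, 1.27, 0.804 and 1.62 CPM in the hippocampus, 2.86, 3.58, 2.78, 2.99 and 2.54 CPM in the accumbens, and 0.428, 1.09, 0.498, 0.432 and 1.38 CPM in the prefrontal cortex. Amygdala, accumbens and hippocampus did not overlap each other, while hippocampus and prefrontal cortex did. The log2 difference was 2.54 (SE 0.251, adjusted p = 6.61e-08) for amygdala over prefrontal cortex, 1.94 (SE 0.257, adjusted p = 2.38e-06) for amygdala over hippocampus and 0.69 (SE 0.217, adjusted p = 0.0116) for amygdala over accumbens. Accumbens over prefrontal cortex was 1.86 (SE 0.258, adjusted p = 2.57e-06) and hippocampus over accumbens -1.25 (SE 0.261, adjusted p = 0.000377). Hippocampus over prefrontal cortex was 0.60 (SE 0.293, adjusted p = 0.108), and 0.95 without control replicate 5 of the prefrontal cortex (adjusted p = 0.0106). The same order of group means, amygdala, accumbens, hippocampus, prefrontal cortex, was found in 7 of 7 conditions.

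**Figure D1:**
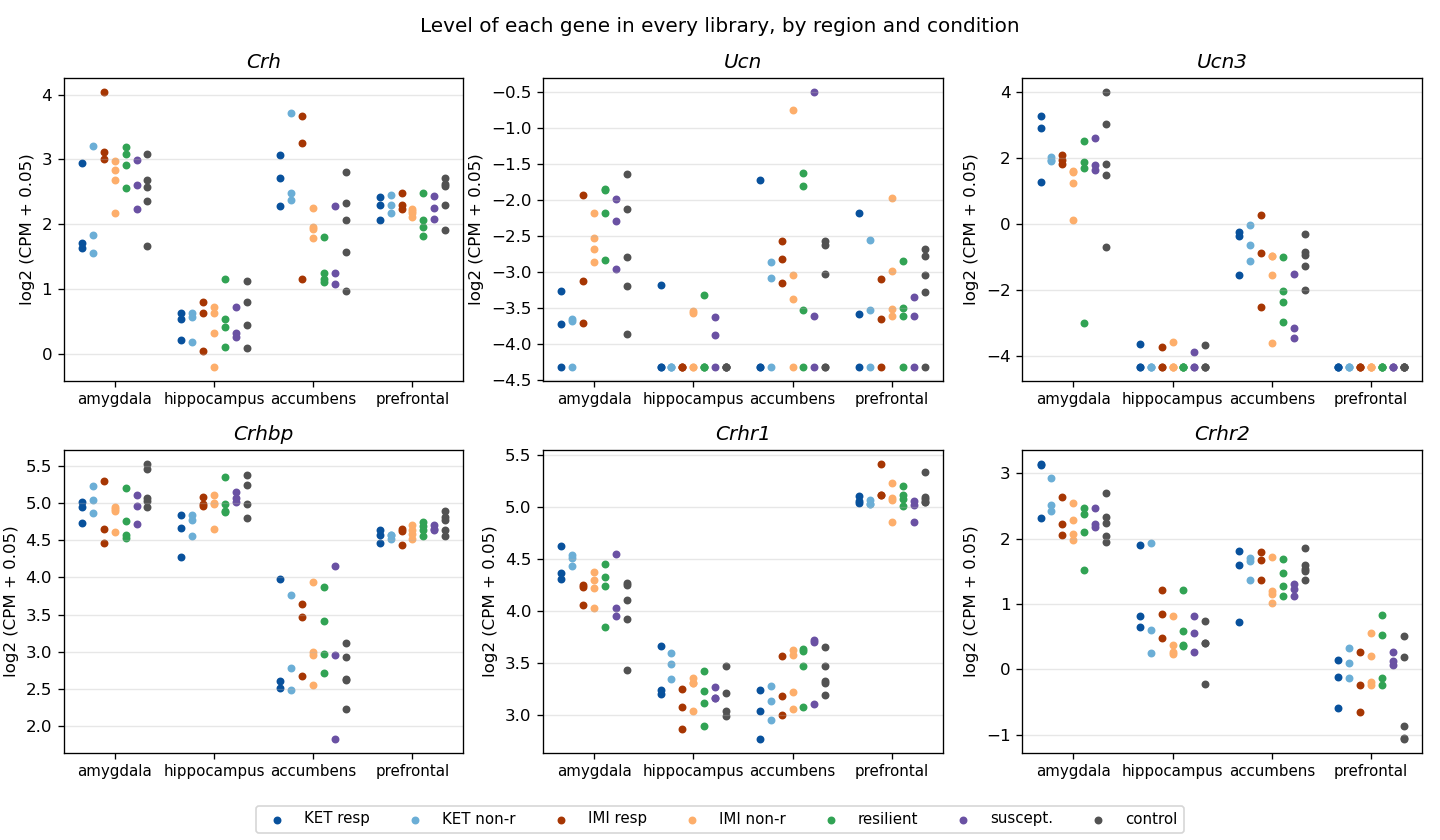
Level of each gene in every library as log2 (CPM + 0.05), by region on the horizontal axis and by condition in colour (KET ketamine, IMI imipramine, resp responder, non-r non-responder). Points at the floor are libraries with 0 reads. Crhr1 stood highest in the prefrontal cortex, Crhr2 and Ucn3 in the amygdala, and Crhbp lowest in the accumbens.

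Of the 5 genes that passed the filter in the control libraries, 4 were called for amygdala over hippocampus, 4 for amygdala over accumbens, 4 for amygdala over prefrontal cortex, 3 for hippocampus over accumbens, 2 for hippocampus over prefrontal cortex and 4 for accumbens over prefrontal cortex. The last count was 3, without Ucn3, when accumbens control replicate 3 or prefrontal control replicate 5 was left out. Called means an adjusted p below 0.05 over the 17720 genes tested. Calls were frequent among all genes: 40.6%, 49.9%, 36.1%, 50.9%, 41.9% and 56.2% of them were called in the same 6 comparisons in that order. With 5 genes, one of which had to differ, these counts are not read as a property of the system. By absolute log2 difference, the highest percentile among all genes was 97.7 for Crhbp (amygdala over accumbens) and 98.2 for Crhr2 (amygdala over prefrontal cortex). For Crhr1 it was 95.6 (hippocampus over prefrontal cortex). The lowest over the 6 comparisons was 25.4 for Crhbp (amygdala over hippocampus) and 76.5 for Crhr2 (hippocampus over prefrontal cortex). For Crhr1 it was 38.1 (hippocampus over accumbens).

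Between genes, levels were compared as CPM per kilobase of exon, with lengths from the GENCODE M21 annotation of a later mouse build than the one used for counting. In the control amygdala the binding protein gene led with 20.7 ± 3.88, followed by Crhr1 with 6.61 ± 1.41, Crh with 4.37 ± 1.45, Ucn3 with 4.16 ± 4.12, Crhr2 with 0.938 ± 0.20 and Ucn with 0.247 ± 0.20 (SD, n = 5). Crhbp also led in the hippocampus, at 19.2 ± 3.40 per kilobase against 3.70 ± 0.580 for Crhr1 and 1.16 ± 0.367 for Crh (n = 4). In the accumbens Crhr1, Crhbp and Crh were within their spread of each other at 4.27 ± 0.538, 3.68 ± 0.842 and 3.17 ± 1.48 per kilobase. Crhbp and Crhr1 were level in the prefrontal cortex at 14.8 ± 1.39 and 14.1 ± 1.26 per kilobase, and Crh stood at 4.11 ± 0.860 there.

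Ratios within a library leave out library size. The log2 ratio of Crh to Crhbp reads had a mean of -2.32 ± 0.725 in the amygdala (n = 25), -4.49 ± 0.289 in the hippocampus (n = 24), -0.95 ± 1.04 in the accumbens (n = 25) and -2.37 ± 0.228 in the prefrontal cortex (n = 25). Hippocampal libraries, from -4.99 to -3.96, lay wholly below the other regions, and Crh reads outnumbered Crhbp reads in some accumbens libraries and in no library of the other regions. Crhr1 reads outnumbered Crhr2 reads in all 99 libraries, by a log2 ratio of 1.88 ± 0.321 in the amygdala, 2.61 ± 0.516 in the hippocampus, 1.89 ± 0.477 in the accumbens and 5.19 ± 0.558 in the prefrontal cortex. Every prefrontal library, from 4.30 to 6.29, lay above every library of the other regions, whose highest value was 3.37.

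**Figure D2:**
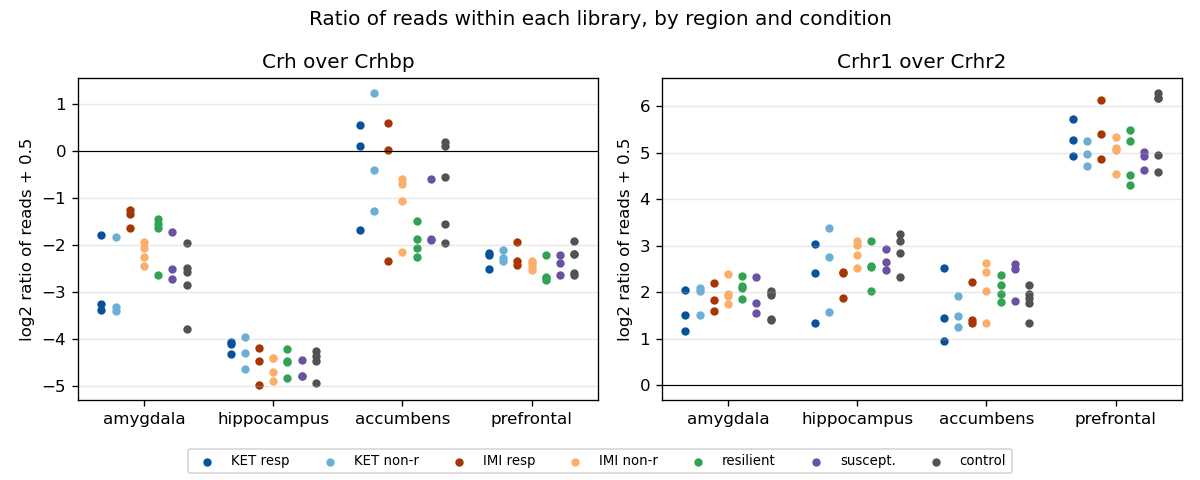
Log2 ratio of reads, with 0.5 added to each count, of Crh over Crhbp and of Crhr1 over Crhr2 in every library, by region and condition. Hippocampal libraries lay lowest for the ligand over its binding protein (-4.99 to -3.96), and prefrontal libraries highest for the type 1 over the type 2 receptor (4.30 to 6.29).

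The signalling genes downstream of the receptors formed a list of 32, all tested in controls, and higher or lower here means called. For amygdala over hippocampus, where 40.6% of all genes were called, 15 were higher and 7 lower, led by the protein kinase A subunits Prkar2b (log2 difference 1.41, SE 0.0675) and Prkacb (1.31, SE 0.0661) and by the adenylyl cyclases Adcy9 (-1.38, SE 0.0914) and Adcy1 (-1.78, SE 0.131). Against the accumbens, the amygdala had 16 higher and 7 lower (49.9% of all genes called) and the hippocampus 14 higher and 7 lower (50.9%). Adcy5, the main adenylyl cyclase of striatum, was lower by 2.45 (SE 0.0854) in the amygdala and by 3.49 (SE 0.0980) in the hippocampus on the log2 scale. Over the prefrontal cortex, 8 genes were higher and 11 lower in the amygdala (36.1% of all genes called), 8 and 18 in the hippocampus (41.9%), and 9 and 19 in the accumbens (56.2%). Medians over the list lay between -0.28 and 0.17, against -0.03 to 0.04 for all genes.

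A second list of 11 genes held the hormonal axis and regulators of Crh, of which 10 were found in the count table and 6 were tested. Nr3c2, the mineralocorticoid receptor gene, was higher in the hippocampus by 1.96 (SE 0.0861) over the accumbens and by 2.99 (SE 0.0895) over the prefrontal cortex, and stood at -2.44 (SE 0.0871) for amygdala over hippocampus on the log2 scale. Avp, the vasopressin gene, was higher in the amygdala by 2.68 (SE 0.529) over the hippocampus, 4.35 (SE 0.589) over the accumbens and 3.98 (SE 0.577) over the prefrontal cortex.

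Genes that followed each member best were sought by Pearson r over the 28 group means, up to 3 for each member. For Crhbp they were Htr3a (0.988), Grhl1 (0.985) and Gng2 (0.984), for Ucn3 Ahi1 (0.987), Ankrd55 (0.982) and Cckar (0.981), and for Crhr1 they included Tgm3 (0.977) and Rusc1 (0.975). For Crhr2 they were Tmem255a (0.976), Maged1 (0.959) and Lbhd2 (0.959), and for Crh Fank1 (0.934), Ccdc116 (0.923) and Rpap3 (0.921). Group means share their regions, so regional differences set most of these values. Over the 99 libraries, as deviations from the group mean, the closest genes were Tmem178 (0.913), Cck (0.896) and Vxn (0.895) for Crhbp, Coro6 (0.708), Rusc1 (0.706) and Zdhhc8 (0.705) for Crhr1, Scg2 (0.666), Gpr50 (0.653) and Cd83 (0.648) for Ucn3, Sncg (0.621), Tac2 (0.568) and Ddc (0.537) for Crh, and Mapk15 (0.568), Tspyl2 (0.566) and Pold3 (0.531) for Crhr2. Cck and Htr3a are expressed in classes of cortical interneuron, which alone assigns Crhbp to no cell type.

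No member of the system was called in any of 36 comparisons of conditions, 9 in each region. Over these, 162 member tests gave 0 calls in edgeR and 18 at an unadjusted p below 0.05 (11.1%), while all genes gave 28716 of 642465 such tests (4.47%). DESeq2 also called 0, with a lowest adjusted p of 0.0888. The count was also 0 in the 18 accumbens and amygdala comparisons with the libraries that stood apart left out, a choice made after seeing the data. The background was thin: 34 of the comparisons had 0 genes called (0% of those tested), hippocampal ketamine responders over susceptible saline mice had 119 of 17758 (0.67%) and hippocampal ketamine non-responders over susceptible saline mice had 1 (0.00563%). A test of any difference among the 7 conditions also called no member. It called 2 of 18392 genes in the amygdala (0.0109%), 95 in the hippocampus (0.535%), 0 of 17718 in the accumbens (0%) and 24 of 17517 in the prefrontal cortex (0.137%). Members with an unadjusted p below 0.05 in it were accumbens Crh (adjusted p = 0.995), hippocampal Crhbp (adjusted p = 0.498) and amygdala Crhr2 (adjusted p = 0.83).

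**Figure D3:**
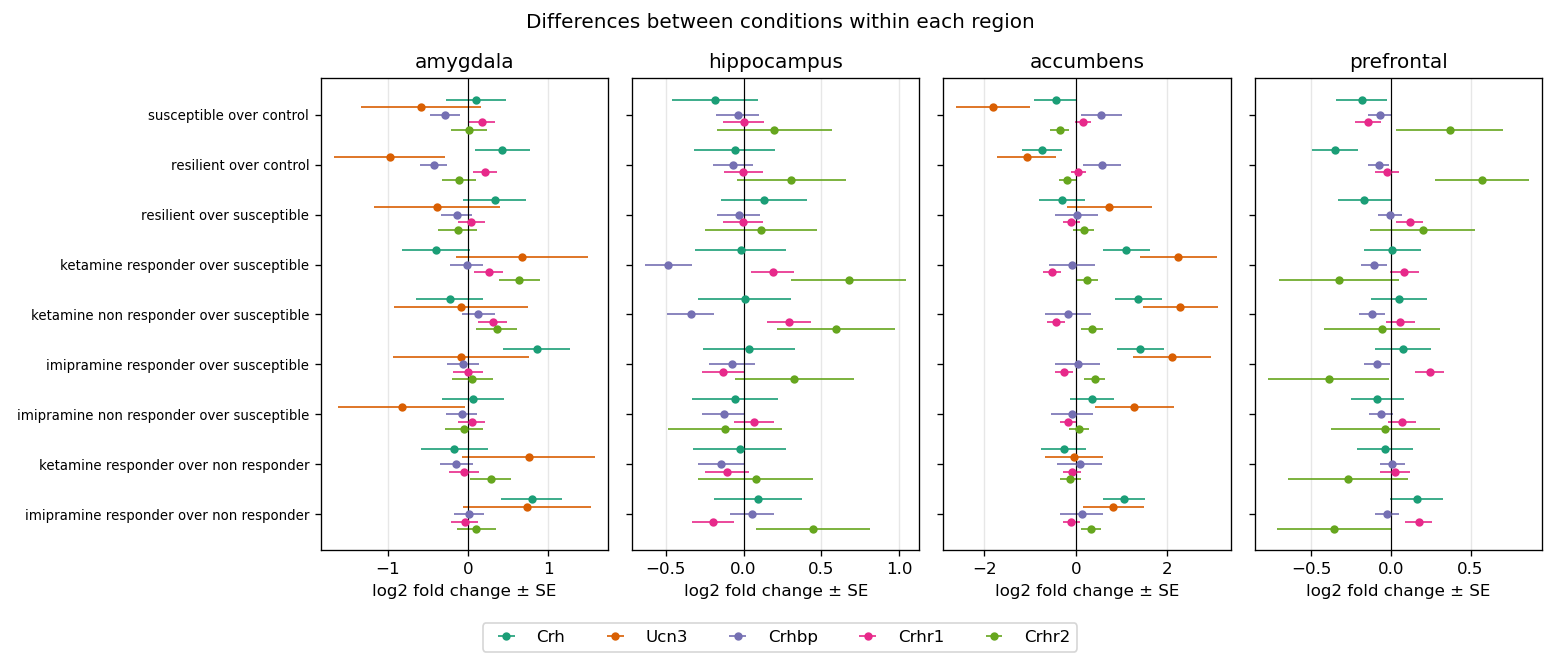
Log2 fold change ± SE of each tested gene in the 9 comparisons of conditions, 1 panel for each region with its own horizontal scale. No point passed an adjusted p of 0.05. The widest bars are those of Ucn3, which was not tested in the hippocampus and prefrontal cortex.

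Between susceptible and control mice given saline, the Crh difference was 0.10 (SE 0.373) in the amygdala, -0.19 (SE 0.277) in the hippocampus, -0.44 (SE 0.467) in the accumbens and -0.18 (SE 0.158) in the prefrontal cortex on the log2 scale. Behind these stood 6.01, 4.67 and 7.93 CPM in the 3 susceptible amygdala libraries, inside the control range of 3.13 to 8.39 CPM, and 1.15, 1.60 and 1.20 CPM in the susceptible hippocampus, inside the control range of 1.01 to 2.13 CPM. The susceptible accumbens had 2.31, 2.06 and 4.80 CPM against 1.91 to 6.97 CPM in controls, and the susceptible prefrontal cortex 5.33, 4.18 and 4.69 CPM against 3.72 to 6.53 CPM. All 12 susceptible values thus lay within the range of the controls. The Crhbp difference was -0.29 (SE 0.183) in the amygdala, -0.04 (SE 0.139) in the hippocampus, 0.56 (SE 0.440) in the accumbens and -0.07 (SE 0.0717) in the prefrontal cortex. Every adjusted p for both genes was above 0.99. Leaving out 1 library turned the sign of 3 of these differences: accumbens Crhbp was -0.22 without susceptible replicate 3, hippocampal Crhbp 0.058 without control replicate 3, and amygdala Crh -0.12 without susceptible replicate 3 and also negative without control replicate 5.

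The accumbens gave 10 of the 18 member tests at an unadjusted p below 0.05, for Crh, Ucn3 and Crhr1. Comparisons with susceptible saline mice share the same 3 libraries. Crh was at 6.47, 4.83 and 8.35 CPM in ketamine responders, 13.1, 5.51 and 5.14 CPM in ketamine non-responders, 9.45, 2.16 and 12.6 CPM in imipramine responders and 4.72, 3.41, 3.76 and 3.81 CPM in imipramine non-responders, against 2.31, 2.06 and 4.80 CPM in susceptible saline mice. Both ketamine groups lay above all 3 susceptible libraries, and 1 imipramine responder lay within them. The log2 difference from susceptible saline mice was 1.10 (SE 0.513, adjusted p = 1) in ketamine responders, 1.36 (SE 0.509, adjusted p = 1) in ketamine non-responders and 1.41 (SE 0.513, adjusted p = 0.428) in imipramine responders. Imipramine responders over non-responders gave 1.05 (SE 0.461, adjusted p = 0.253). Without imipramine responder replicate 2, the library at 2.16 CPM, Crh was called in both imipramine responder comparisons, at 1.87 over susceptible saline mice (adjusted p = 0.0476) and at 1.52 over non-responders (adjusted p = 0.0224). Without replicate 3, the library at 12.6 CPM that stood apart, the same differences were 0.92 (adjusted p from edgeR 0.9998) and 0.58 (0.9999). Against susceptible mice, leaving out single libraries gave 0.87 to 1.59 in ketamine responders and 0.79 to 1.85 in ketamine non-responders, none called.

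Ucn3 in the accumbens stood at 0.733, 0.296 and 0.805 CPM in ketamine responders, 0.934, 0.411 and 0.592 CPM in ketamine non-responders and 0.50, 0.125 and 1.15 CPM in imipramine responders, against 0.299, 0.0635 and 0.0410 CPM in susceptible saline mice. Controls had 0.507, 0.470, 0.756, 0.367 and 0.199 CPM. Susceptible saline libraries were low, with 2 of them below every control library. The log2 difference was -1.80 (SE 0.802, adjusted p = 1) for susceptible over control mice. Over susceptible mice it was 2.23 (SE 0.842, adjusted p = 1) in ketamine responders, 2.28 (SE 0.813, adjusted p = 1) in ketamine non-responders and 2.1 (SE 0.851, adjusted p = 0.428) in imipramine responders. Single libraries moved these differences: over the libraries left out in turn they ran from -3.00 to -1.41 for susceptible over control mice, 1.84 to 3.43 in ketamine responders, 1.88 to 3.48 in ketamine non-responders and 1.27 to 3.28 in imipramine responders. The largest sizes in all 4 came without susceptible replicate 1, and the 1.27 came without imipramine responder replicate 3. None was called. These are small counts, with 1 to 35 reads in a library over the whole region.

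Accumbens Crhr1 had 8.19, 9.40 and 6.78 CPM in ketamine responders and 7.68, 9.65 and 8.75 CPM in ketamine non-responders, against 8.60, 13.0 and 13.2 CPM in susceptible saline mice. The lowest susceptible library lay within both ketamine groups. The log2 difference was -0.52 (SE 0.199, adjusted p = 1) in responders and -0.43 (SE 0.197, adjusted p = 1) in non-responders.

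Marker lists differed between accumbens libraries. The 3 genes of cortical glutamatergic neurons (Slc17a7, Neurod6, Tbr1) summed to 27.4 to 499 CPM in ketamine responders, 7.39 to 482 CPM in ketamine non-responders, 133 to 336 CPM in imipramine responders, 11.3 to 1122 CPM in susceptible saline mice and 12.3 to 254 CPM in controls. None of the 3 was at 0 in a group. All 3 had negative log2 differences from susceptible mice in the responders to ketamine, its non-responders and the responders to imipramine (medians -1.22, -1.20 and -0.69), with none at an unadjusted p below 0.05. As a mean of log2 CPM the list stood at 3.28, 3.06 and 4.68 in those groups, against 3.77 in susceptible mice, so for imipramine responders the sign depended on the measure. Of 6 markers of the central amygdala and adjoining tissue, 5, 6 and 6 had positive log2 differences in the same 3 comparisons (medians 0.45, 0.62 and 0.36), with 1, 1 and 2 at an unadjusted p below 0.05. Their summed range was 173 to 270, 172 to 308 and 136 to 269 CPM, against 79.5 to 201 CPM in susceptible mice and 159 to 238 CPM in controls. In control accumbens libraries Dlk1 (148 ± 32.1 CPM) and Nts (29.1 ± 5.91 CPM) were the highest of the 6, and Cyp26b1 was at 2.97 ± 1.37 CPM. The list is therefore not read as central amygdala tissue there. The part of these markers in the Crh, Ucn3 and Crhr1 values was not tested.

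In the hippocampus, both ketamine groups lay below susceptible saline mice for the binding protein gene. Crhbp had 28.4, 25.2 and 19.3 CPM in ketamine responders and 27.3, 23.5 and 28.6 CPM in ketamine non-responders, against 32.3, 35.3 and 33.4 CPM in susceptible saline mice. All 6 ketamine libraries lay below all 3 susceptible ones. Controls ran from 27.7 to 41.4 CPM and overlapped both ketamine groups. The log2 difference from susceptible saline mice was -0.48 (SE 0.149, adjusted p = 0.175) in responders and -0.34 (SE 0.15, adjusted p = 0.818) in non-responders, so neither was called. The responder difference was called with runs of sample numbers as a covariate (-0.59, adjusted p = 0.019) and without ketamine responder replicate 1 (-0.62, adjusted p = 0.0377). Leaving out replicate 3 instead, the library at 19.3 CPM, moved it to -0.34 (adjusted p = 1).

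Thalamic markers were higher in both hippocampal ketamine groups. The 6 thalamic markers summed to 80.1 to 361 CPM in ketamine responders and 67.5 to 83.2 CPM in ketamine non-responders, against 32.2 to 36.8 CPM in susceptible saline mice and 35.2 to 86.6 CPM in controls. Of the 6, 5 were called higher in responders and 1 in non-responders. Of 10 choroid plexus markers 0 were called, with 9 and 8 higher at an unadjusted p below 0.05. Among all 17758 genes, 1772 and 1018 had such a p in either direction. The choroid plexus sums were 421, 2613 and 49.5 CPM in ketamine responders, against 39.1 to 45.5 CPM in susceptible saline mice. In non-responders they were 38.2, 1849 and 41.3 CPM, so 1 library there was high, and 1 resilient library reached 1012 CPM. No marker of either list was at 0 in a group. Their part in the Crhbp result was not tested. Hippocampal Crhr1 had 10.1, 11.2 and 12.0 CPM in ketamine non-responders, against 8.90, 8.95 and 9.60 CPM in susceptible saline mice. These groups did not overlap, and the difference was not called (log2 difference 0.29, SE 0.139, adjusted p = 0.867).

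Amygdala values gave 2 further members at an unadjusted p below 0.05. Crhr2 had 4.95, 8.78 and 8.66 CPM in ketamine responders, against 4.62, 5.48 and 4.48 CPM in susceptible saline mice. One responder library lay within the susceptible range (log2 difference 0.64, SE 0.255, adjusted p = 1). All 10 choroid plexus markers had positive differences in these responders (median log2 difference 4.66), 9 at an unadjusted p below 0.05 and 0 called. Among all 18392 genes, 776 had such a p. Only replicate 2 was high in these markers, with a sum of 2922 CPM against 17.9 and 24.3 CPM in replicates 1 and 3. Susceptible libraries had 35.0, 42.8 and 32.7 CPM. Replicate 3 had 8.66 CPM of Crhr2. The mean log2 level of the markers ran from -0.79 to 5.16 in the 3 responder libraries, against -0.56 to -0.19 in susceptible mice. Cortical glutamatergic markers were at 6.54 to 6.95 in the same responders, against 7.32 to 7.37 in susceptible mice, and striatal projection markers at 4.82 to 5.82, against 5.93 to 6.69, with no overlap for either list. All 3 and all 8 of their differences were negative, with 1 and 2 at an unadjusted p below 0.05. Crhbp had 27.1, 23.6, 36.6 and 23.1 CPM in resilient mice, against 30.7, 33.3, 32.6, 45.8 and 43.6 CPM in controls, and 3 of the 4 resilient libraries lay below every control (log2 difference -0.43, SE 0.168, adjusted p = 0.663). All 8 striatal projection markers had positive differences in the same resilient libraries at an unadjusted p below 0.05 and 0 were called, with a mean log2 level of 5.66 to 7.75 against 4.41 to 5.98 in controls. What part those markers had was not tested.

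Prefrontal differences were small. Resilient mice had 3.81, 4.11, 5.55 and 3.48 CPM of Crh against 6.53, 5.94, 6.09, 4.85 and 3.72 CPM in controls, groups that overlapped (log2 difference -0.35, SE 0.145, adjusted p = 0.477). Crhr1 had 34.5, 34.6 and 42.4 CPM in imipramine responders, against 33.4, 37.4, 28.9 and 33.8 CPM in imipramine non-responders and 33.1, 32.3 and 29.0 CPM in susceptible saline mice. Responders lay above all susceptible libraries, by 0.25 (SE 0.0914, adjusted p = 1), and overlapped the non-responders, whom they exceeded by 0.17 (SE 0.0850, adjusted p = 0.904) on the log2 scale.

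**Figure D4:**
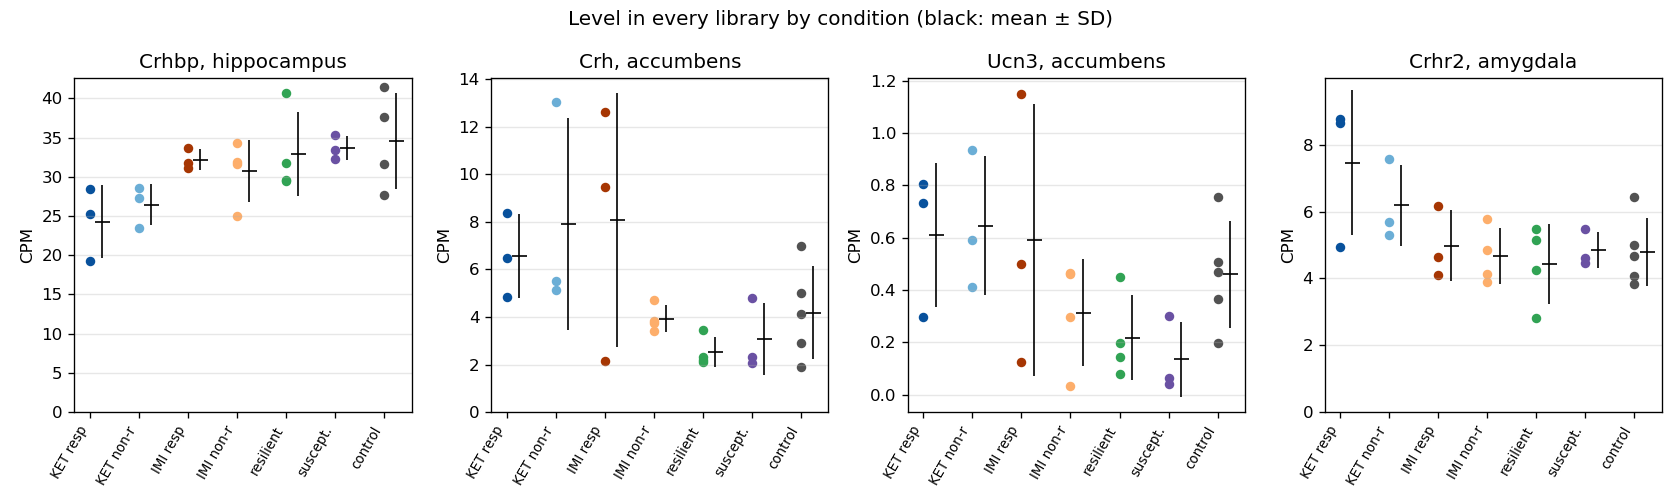
CPM of hippocampal Crhbp, accumbens Crh, accumbens Ucn3 and amygdala Crhr2 in every library, by condition (points), with the group mean and SD beside them in black. Hippocampal Crhbp in ketamine groups (19.3 to 28.6 CPM) lay below the 3 susceptible saline libraries (32.3 to 35.3 CPM), and no difference was called.

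Whether a condition difference itself varied between regions was tested in a fit of all 99 libraries, 9 tests over 19024 genes. No member passed. Crhr1 for ketamine responders over susceptible mice had an adjusted p of 0.369 and Crh one of 0.967, for ketamine non-responders both had one of 1, and Crhbp for resilient over control mice had one of 0.802. These 5 were the member tests at an unadjusted p below 0.05. Among all genes 126 were called for ketamine responders over susceptible mice (0.662%) and 23 for resilient over control mice (0.121%). Ketamine non-responders over susceptible mice had 1 (0.00526%) and the other 6 comparisons had 0.

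The pathway lists gave no call either. Over the 36 comparisons the 32 signalling genes made 1152 tests, with 20 higher and 26 lower at an unadjusted p below 0.05, and list medians between -0.18 and 0.07 against -0.01 to 0.03 for all genes. The axis and regulator genes made 198 tests, with 6 higher and 5 lower at that p and medians between -0.17 and 0.18.

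Within groups, levels of the members varied along with marker lists named for cell types or tissues. These are correlations of deviations from the group mean over the 24 or 25 libraries of a region, chosen from 248 computed, and they share library and dissection. In the amygdala, Crh followed the central amygdala markers (Pearson r 0.781, Spearman rho 0.779, and r 0.691 without the 2 libraries farthest from the median of the markers) and the striatal markers (r 0.789, rho 0.813, 0.841 without 2). Crhbp there followed the 2 basolateral markers Rspo2 and Lmo3 (r 0.706, rho 0.725, 0.671 without 2). It followed the cortical glutamatergic markers at least as closely (r 0.767, rho 0.828, 0.74 without 2). Crhbp went against Crhr2 (r -0.597, rho -0.722, -0.703 without 2). Crhr2 went against the cortical glutamatergic markers (r -0.708, rho -0.727, -0.629 without 2) and had r 0.261 with the choroid plexus markers (rho 0.309, 0.356 without 2). Ucn3 in the amygdala followed Crhr2 (r 0.731, rho 0.666, 0.601 without 2), the thalamic markers (r 0.791, rho 0.642, 0.694 without 2) and the 10 hypothalamic markers (r 0.686, rho 0.615, 0.531 without 2). Most of the hypothalamic list was near the floor in control amygdala libraries: Nkx2-4 was at 0, and Oxt, Hcrt, Pmch, Agrp and Otp averaged 0.0958 to 0.817 CPM. Nkx2-1 and Trh had higher means in the accumbens (7.85 and 6.28 CPM) than in the amygdala (3.32 and 5.69 CPM). Sim1 and Avp, at 1.14 and 2.34 CPM, had their highest mean in the amygdala. The thalamic list was led by Slc17a6 in amygdala controls (62.3 ± 22.8 CPM). Tcf7l2, Rgs16 and Gbx2 averaged 5.85, 8.27 and 0.372 CPM there, below 6.38, 9.15 and 1.21 CPM in the accumbens. Lhx9 and Tnnt1 averaged 3.62 and 0.833 CPM, above 0.264 and 0.775 CPM in the accumbens. That list is therefore not read as thalamic tissue in the amygdala.

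Accumbens Crhbp followed the interneuron markers (r 0.916, rho 0.918, 0.897 without 2) and the cortical glutamatergic markers (r 0.921, rho 0.878, 0.888 without 2). It also followed the basolateral markers Rspo2 and Lmo3 (r 0.882, rho 0.802, 0.83 without 2). Gad2, Gad1 and Slc32a1 led the interneuron list in accumbens controls (803, 686 and 310 CPM) and had their highest regional mean there. The list is therefore not read as interneurons in that region. Ucn3 there went against the cortical glutamatergic markers (r -0.748, rho -0.785, -0.715 without 2). It followed the list named for the central amygdala (r 0.749, rho 0.715, 0.667 without 2), of which Dlk1 and Nts were highest in accumbens controls. Accumbens Crhr1 had the opposite signs, with r 0.709 for the cortical glutamatergic markers (rho 0.685, 0.639 without 2). For the list named for the central amygdala it had r -0.68 (rho -0.666, -0.659 without 2). Hippocampal Crhr2 followed the choroid plexus markers (r 0.848, rho 0.743, 0.767 without 2), and hippocampal Crh followed Crhbp (r 0.712, rho 0.696, 0.736 without 2). Hippocampal Crh went against the list named for the central amygdala (r -0.679, rho -0.823, -0.793 without 2), the sign opposite to that in the amygdala. Prkcd led that list in hippocampal controls (41.2 ± 39.6 CPM) and Cyp26b1 in amygdala controls (127 ± 43.7 CPM). These signs are therefore not set against each other. Prefrontal Crhbp followed the interneuron markers (r 0.779, rho 0.798, 0.801 without 2). Accumbens Crh went against the striatal markers, with r -0.573 over all libraries (rho -0.582, -0.473 without 2) and -0.836 without the library that stood apart. The other accumbens and amygdala relations named here kept their sign without the libraries that stood apart, with absolute r from 0.582 to 0.947 apart from the choroid plexus one. The part of dissection in these relations was not tested.

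**Figure D5:**
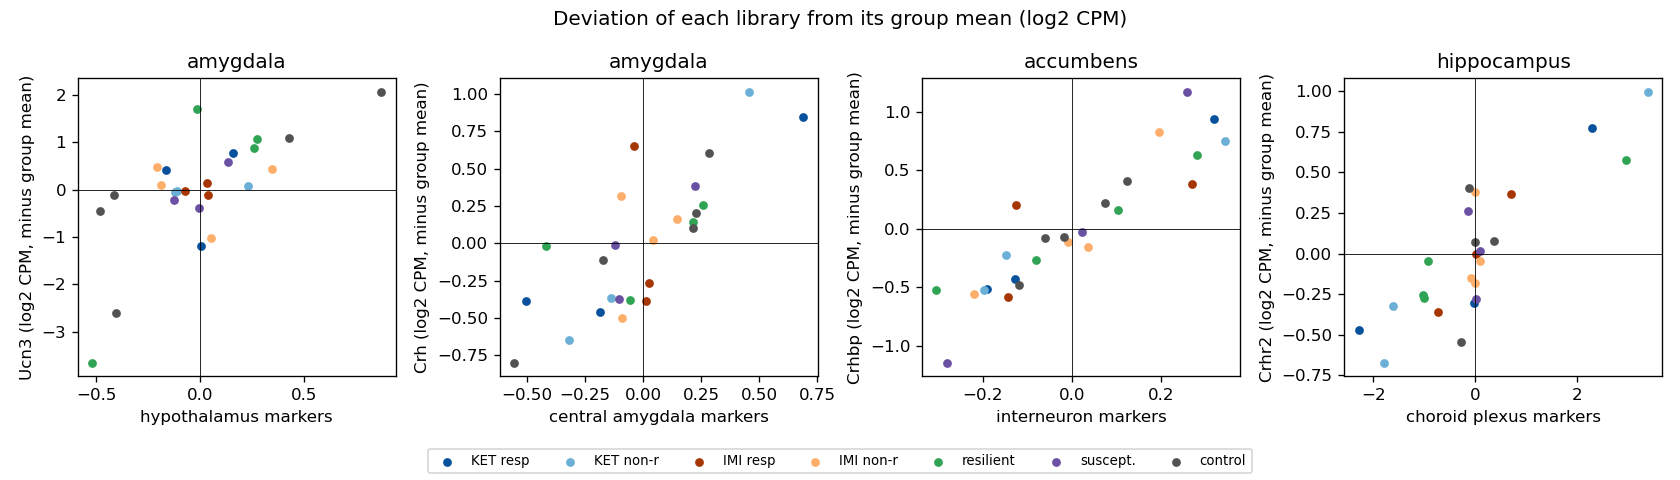
Deviation of each library from its group mean in log2 CPM, for a member (vertical) against the mean of a marker list (horizontal), coloured by condition. Pearson r was 0.686 for amygdala Ucn3 with hypothalamic markers, 0.781 for amygdala Crh with central amygdala markers, 0.916 for accumbens Crhbp with interneuron markers and 0.848 for hippocampal Crhr2 with choroid plexus markers. Accumbens Crhbp had r 0.921 with the cortical glutamatergic markers, which are not drawn.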

How the data were processed

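The authors deposited raw counts for each Ensembl gene, whole numbers without normalization, in 1 table of all 99 libraries. Per the labels' protocols, RNA was selected for poly-A and sequenced as 50 bp pairs with a kit that does not mark strand. The submitters' processing notes name Bowtie2 2.1.0, TopHat2 2.0.9, HTSeq 0.6.0 and build NCBIM37. Symbols matched 32919 of 37991 IDs (86.6%), and none of the 6 genes overlapped another in GENCODE M21. Genes were filtered with filterByExpr (minimum count 10), scaled with TMM and tested in R 4.3.3 with edgeR 4.0.16 quasi-likelihood F-tests, 1 fit for each region and 1 for control libraries, adjusted by Benjamini-Hochberg over all genes tested. Printed CPM were scaled with TMM over all 99 libraries. Marker levels are means of log2 CPM (prior count 2). Alternatives used DESeq2 1.42.0, median-ratio scaling, no filter, the 5 runs of consecutive sample numbers as a covariate (a run is not stated to be a batch), and leaving out libraries. Ketamine responders and non-responders shared no run in the amygdala or the prefrontal cortex, so their direct comparison there also compares runs. Leaving out the libraries that stood apart was added after seeing the data. The tests were tried on simulated data. Members get a fold change in the text where their unadjusted p was below 0.05, and Crh and Crhbp always for susceptible mice. From each pathway list, up to 2 called genes in each direction are named, and the 3 genes with the highest r for each member. A pair of genes that these rules and lists held is not reported here, and the list of cortical glutamatergic markers was computed without one of them. Members and lists were chosen with earlier results of these data known. Among 132 pairs of libraries of a group, 0 were identical (lowest chi-square per degree of freedom 4.35). Labels do not say whether regions share mice.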

Additional observations from a re-analysis of the deposited data

Results flagged for a closer look

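Among 54 groups of 4 or 5 libraries, 4 held a library far from the rest of its group, by the gap to the nearest library over the whole range of the group. Chance flags about 1 group in 20. Crh in the accumbens of resilient mice was at 3.44 CPM in replicate 2, against 2.1 to 2.32 CPM in the other 3. Crhbp in the amygdala of imipramine non-responders was at 24.3 CPM in replicate 2, against 29.8 to 30.7 CPM in the others. Crhr1 in the prefrontal cortex of control mice was at 40.2 CPM in replicate 3, against 33.0 to 34.1 CPM in the others. Crhr1 in the hippocampus of imipramine non-responders was at 8.18 CPM in replicate 4, against 9.87 to 10.2 CPM in the others.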

How the results depend on the processing

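No paired analysis was possible because the replicate numbers were given in order of deposit and tie no libraries together. The spread between 3 to 5 libraries in a group set the precision, with standard errors of the named condition differences from 0.0717 to 0.851 on the log2 scale. Counts of members called in the condition comparisons stayed at 0 under every alternative, except that hippocampal ketamine responders over susceptible mice had 1 (Crhbp) with runs of sample numbers as a covariate. Leaving out single libraries gave 0 to 1 members called for that comparison, for accumbens imipramine responders over susceptible mice and for accumbens imipramine responders over non-responders. Averaged over all 99 libraries, 4 members were called for hippocampus over prefrontal cortex. Differences that turned sign were never called, and the largest of them was 0.56 (accumbens Crhbp, susceptible over control). With those runs as a covariate, hippocampal susceptible over control was 0.15 for Crh and 0.10 for Crhbp. Leaving out single libraries, susceptible over control ranged from -0.22 to 0.95 for accumbens Crhbp, -0.13 to 0.058 for hippocampal Crhbp and -0.12 to 0.28 for amygdala Crh, and control amygdala over prefrontal cortex from -0.10 to 0.24 for Crh. The causes were not tested.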
